A study of Rattus norvegicus with 15 samples.

Results

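The genes described here encode the machinery of autophagy, the vacuolar proton pump (V-ATPase), the cathepsin proteases and some membrane and lumenal proteins of the lysosome. They were chosen by symbol: the Atg, Atp6v, Atp6ap, Lamp, Gabarap and Map1lc3 families, the cathepsins with a single-letter name, and Sqstm1, Becn1, Ulk1, Ulk2, Tfeb, Tfe3, Mcoln1, Npc1, Npc2, Wipi1, Wipi2 and Uvrag. The rule used no measured value. It matched 76 of the 19328 entries of the expression table, and 57 of the 76 reached an FPKM of 1 in 3 libraries or more out of 15, as did 11288 entries in all. FPKM are sequenced fragments scaled to transcript length and to the size of the library. These 57 were tested and are called the tested members below. The other 19 are accounted for with their gene families, and 17 of them were under an FPKM of 1 in every library. At the edge of that threshold stood Atp6v1fnb, which passed with 3 libraries, and Atp6v0a4 and Atp6v1g2, which did not pass with 1 library each.

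In autophagy a double membrane closes around a part of the cytoplasm and then fuses with a lysosome, where the contents are broken down. The ULK kinase complex and the Beclin 1 lipid kinase complex start the membrane, ATG9 and ATG2 proteins supply lipid to it, and a conjugation system attaches ATG8 proteins (LC3 and GABARAP) that receptors such as p62 bind. The V-ATPase acidifies the lysosome so that cathepsins can cut proteins, and the transcription factors TFEB and TFE3 switch on many genes of both compartments through the CLEAR sequence, which contains an E-box. In heart muscle, lysosomal acidification and autophagic flux have been studied as targets of anthracyclines.

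RNA was sequenced from H9c2, a rat myoblast line of embryonic heart origin, in 5 groups of 3 libraries, all tagged wild type in the labels. DSI+DOX cells received 50 µL of danshen injection, a preparation of Salvia miltiorrhiza root, diluted 1/20 in the culture volume, and after 4 h 2 µM doxorubicin, an anthracycline that traps topoisomerase II on DNA. AXT+DOX cells received 5 µM astaxanthin, a carotenoid, and DMT+DOX cells 10 µM diosmetin, a flavone, each followed after 4 h by the same dose of doxorubicin. DOX cells received 2 µM doxorubicin alone and con cells phosphate-buffered saline, and cells were harvested 24 h after doxorubicin. Since every addition was followed by doxorubicin, what an addition did by itself cannot be told apart from what it did to the doxorubicin response.

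The label calls the cells cardiomyocytes. Of 9 cardiomyocyte markers, 8 were in the table, and 6 of these (Myh6, Tnni3, Actn2, Ryr2, Nppa and Myl7) were under an FPKM of 1 in every library. Of 6 skeletal myoblast markers 5 were in the table and all 5 were tested. Their summed FPKM was 28.2 to 29.97 in DOX and 117 to 124 in con. Most of that gap was Myog (2.22 to 2.60 in DOX and 90.5 to 98.4 in con), while Myod1 was at 18.8 to 20.7 in DOX and 17.4 to 18.7 in con. The 8 cardiomyocyte markers summed to 79.6 to 96.4 in DOX and 200.2 to 218 in con, most of it Tnnt2 (73.04 to 88.7 in DOX and 194 to 213 in con), while Nkx2-5 was at 6.15 to 7.28 in DOX and 4.57 to 5.85 in con. The 4 fibroblast-like markers summed to 2997 to 3217 in DOX and 4489 to 4629.6 in con. Among them Col1a1 was at 1464 to 1736 in DOX and 3101 to 3206 in con, and Vim at 1303 to 1376 in DOX and 1248 to 1311 in con. The part of these shifts in the results was not tested. Macrophages are another source of lysosomal transcripts, and the 5 macrophage markers in the table were under 1 in every library (summed FPKM 0.849 to 0.915 in DOX and 0.546 to 0.615 in con). Replicate 3 of DSI+DOX stood apart, with correlations of 0.953 and 0.963 with its own replicates over tested genes and an FPKM sum of 548227, against 433383 to 468608 in the other 14 libraries. Counts are therefore also given without it.

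The members that passed the test in DOX against con were all higher in DOX. Of the 57 tested members, 34 were higher in DOX than in con at a limma adjusted p under 0.05 and 0 were lower. Among the 34, Atg9b and Atp6v0e2 passed the FPKM filter only through libraries given doxorubicin. Over all 11288 tested entries 38.9% were called, 24.8% higher and 14.1% lower, so the share of members called higher (59.6%) was above the background and the share called lower was under it. At an unadjusted p under 0.05, 39 members were higher and 1 was lower. The share of all tested entries at that unadjusted threshold was not counted, so these counts have no background. The median log2 fold change was 0.33 over the members and 0.05 over all tested entries, both on the log2(FPKM + 1) scale. On that scale, which understates changes of low genes, 4 called members differed by 1 or more. All 3 DOX libraries lay above all 3 con libraries for 41 members and below them for 3, against 35.9% and 26.7% of all tested entries. All 76 matching genes together held 1.34% to 1.35% of the summed FPKM in DOX and 0.936% to 0.958% in con. In bulk RNA, a change in how many cells express a gene cannot be told apart from a change in RNA per cell.

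The count of calls depended on scaling and on which libraries entered the fit. With all libraries shifted to 1 median, 24 higher and 1 lower members were called, with Atg4c the lower one, and of the calls over all tested entries 49.6% were then higher, against 63.8% without that shift. Without DSI+DOX replicate 3 in the fit, 44 higher and 3 lower members were called. The calls gained were Atg10, Atg13, Atg16l1, Atg4d, Atp6ap2, Atp6v0c, Atp6v1a, Atp6v1fnb, Map1lc3a and Wipi1 as higher and Atg4c, Atp6v0e1 and Ulk2 as lower. Every one of the 34 kept its sign in every alternative run, and 25 stayed called without each of the 6 libraries of this comparison in turn.

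**Figure D1:**
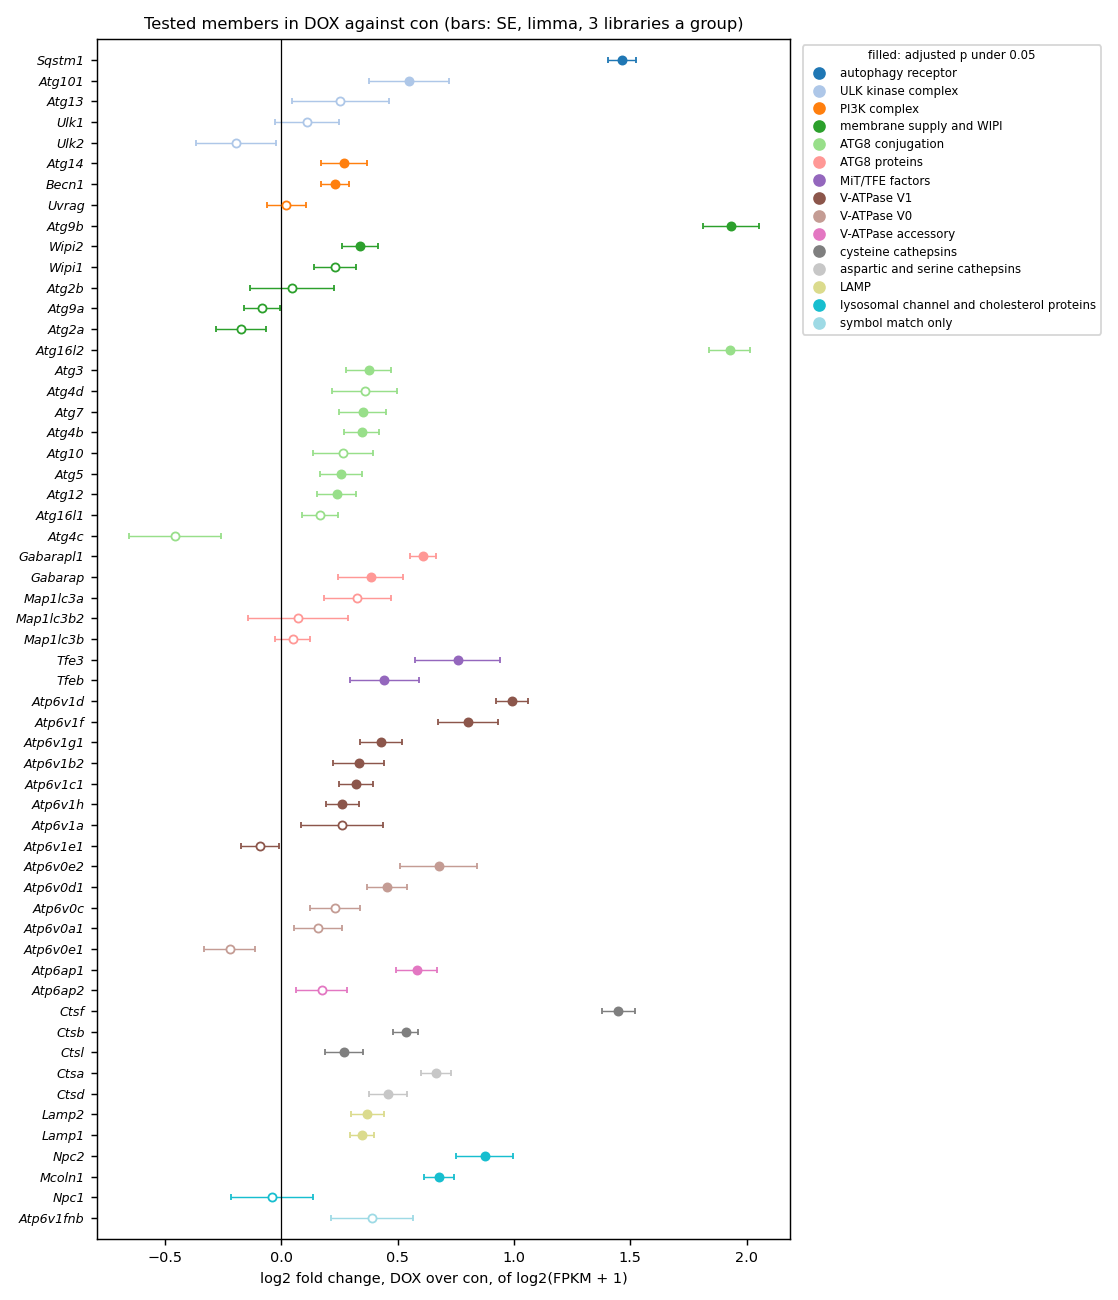
Log2 fold change of log2(FPKM + 1) in DOX over con for each of the 57 tested members, ordered by role, with bars of 1 SE from limma. Filled points passed an adjusted p of 0.05. The 34 filled points all lie right of 0, and Atg9b, Atg16l2, Sqstm1 and Ctsf lie farthest right.

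Sqstm1 encodes p62, the receptor that carries ubiquitinated cargo to LC3 on the growing membrane and that is itself degraded by autophagy. It had 542, 518 and 544 FPKM in the DOX libraries, against 194, 199 and 186 FPKM in the con libraries. All DOX libraries were above all con libraries, with a ratio of mean FPKM of 2.77 (log2 fold change 1.46 ± 0.06 (SE), limma adjusted p = 9.29e-10). A pseudogene, Sqstm1-ps1, is annotated, and reads shared with it would not be told apart in these values.

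The complexes that start the membrane had 1 of 4 (ULK) and 2 of 3 (Beclin 1) tested genes higher in DOX and none lower. Among all tested entries 24.8% were higher, and the ULK share was near that. Whether the shares of this and the other role groups below differ from it was not tested. Of the 4 genes of the ULK kinase complex, which relays nutrient signals, 1 was called. This was Atg101, a scaffold subunit, with 36.2, 34.7 and 34.6 FPKM in the DOX libraries, against 26.5, 24.6 and 20.4 FPKM in the con libraries (log2 fold change 0.55 ± 0.17 (SE), limma adjusted p = 0.0209). Its groups did not overlap, but the call was lost without con replicate 3 (adjusted p = 0.0941) or DOX replicate 1 (adjusted p = 0.0611). Median scaling also took away the call of Atg101 (limma adjusted p = 0.0872). Ulk1, the kinase itself, had 9.43, 10.6 and 11.4 FPKM in the DOX libraries, against 9.45, 9.56 and 9.75 FPKM in the con libraries, and did not pass (log2 fold change 0.11 ± 0.14 (SE), limma adjusted p = 0.571). Its DOX and con libraries overlapped. The log2 fold change was 0.25 ± 0.21 (SE) for the scaffold gene Atg13 and -0.19 ± 0.17 (SE) for the kinase gene Ulk2, neither called.

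The Beclin 1 complex makes phosphatidylinositol 3-phosphate on the new membrane. Its core gene Becn1 had 51.7, 46.4 and 45.5 FPKM in the DOX libraries, against 40.5, 41.3 and 39.9 FPKM in the con libraries. The groups did not overlap, and the difference was small (log2 fold change 0.23 ± 0.06 (SE), limma adjusted p = 0.00784). After median scaling the adjusted p of Becn1 was 0.0809. Atg14, the subunit that targets the complex to autophagy, was called with a log2 fold change of 0.27 ± 0.10 (SE) at a limma adjusted p = 0.0435, and lost its call without con replicate 1, 2 or 3 or DOX replicate 2 or 3. Median scaling took the limma adjusted p of Atg14 to 0.0759. Uvrag, the subunit of the complex that acts on endosomes, read 0.02 ± 0.08 (SE) and was not called.

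Atg9b had the largest log2 fold change of the tested members. Atg9 proteins span the membrane of the vesicles that seed the autophagosome and move lipid between its leaflets. Atg9b had 2.46, 3.50 and 3.39 FPKM in the DOX libraries, against 0.0653, 0.13 and 0.0249 FPKM in the con libraries. The con libraries were all near 0 and the DOX libraries all well above them (log2 fold change 1.93 ± 0.12 (SE), limma adjusted p = 3.77e-08). Atg9b reached an FPKM of 1 in 10 libraries, all given doxorubicin. Its place among the tested members thus came only from groups where it is high. It overlaps Nos3, the endothelial nitric oxide synthase gene, on the opposite strand in the RefSeq annotation, and whether the counting used strand is not given in the sources used here. Nos3 itself had 0.694, 0.797 and 0.695 FPKM in DOX and 0.0144, 0.0581 and 0.042 FPKM in con, so reads of the pair cannot be told apart. Its paralog Atg9a was not called (-0.08 ± 0.08, SE).

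Of the 6 genes of membrane supply and WIPI proteins, Wipi2 was the other one called, where 24.8% of all tested entries were higher. WIPI proteins bind the lipid made by the Beclin 1 complex, and WIPI2 recruits ATG16L1 there. Wipi2 averaged 29.2 ± 2.78 FPKM in DOX and 22.8 ± 0.772 FPKM in con (SD, n = 3 each), a log2 fold change of 0.34 ± 0.08 (SE) with a limma adjusted p = 0.00289. Wipi1 had 27.2, 29.7 and 30.6 FPKM in the DOX libraries, against 24.05, 25.2 and 24.7 FPKM in the con libraries, and did not pass (log2 fold change 0.23 ± 0.09 (SE), limma adjusted p = 0.0597). Its libraries did not overlap between groups, and without DSI+DOX replicate 3 in the fit it was called (adjusted p = 0.00183). The lipid transfer genes Atg2a and Atg2b read -0.17 ± 0.11 and 0.05 ± 0.18 (log2 fold change, SE), neither called.

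The conjugation system had 6 of 10 genes higher and none lower. ATG7 activates ATG8 proteins and ATG12, ATG3 hands ATG8 to lipid, and the ATG12-ATG5-ATG16L1 complex sets where this happens. Atg16l2, a paralog of Atg16l1, had 10.7, 10.5 and 10.5 FPKM in the DOX libraries, against 1.99, 2.13 and 2.01 FPKM in the con libraries. The 3 libraries of each group lay close together and far from the other group (log2 fold change 1.93 ± 0.09 (SE), limma adjusted p = 2.83e-09). Atg16l1 did not pass, with a log2 fold change of 0.17 ± 0.08 (SE).

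The other called genes of conjugation changed less. Their log2 fold changes were 0.38 ± 0.10 for Atg3, 0.35 ± 0.10 for Atg7, 0.35 ± 0.07 for Atg4b, a protease that trims ATG8, 0.26 ± 0.09 for Atg5 and 0.24 ± 0.08 for Atg12 (each with its SE). Of these, Atg3 and Atg4b stayed called without each library in turn. After median scaling Atg3 (adjusted p = 0.0622), Atg5 (adjusted p = 0.236) and Atg12 (adjusted p = 0.0729) lost their calls. Atg7 lost its call without con replicate 3 or DOX replicate 3, Atg5 without con replicate 1, 2 or 3 or DOX replicate 1 or 2, and Atg12 without con replicate 1 or 3 or DOX replicate 1 or 2. Of the 4 not called, the protease gene Atg4c had the only negative value, -0.46 ± 0.20 (SE), with an adjusted p = 0.0873.

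Of the 5 ATG8 genes, 2 were called higher and none lower, where 24.8% of all tested entries were higher and 14.1% lower. Gabarapl1, of the GABARAP branch, had 43.6, 44.9 and 47.2 FPKM in the DOX libraries, against 28.6, 29.2 and 30.1 FPKM in the con libraries. All DOX libraries were above all con libraries (log2 fold change 0.61 ± 0.06 (SE), limma adjusted p = 2.05e-06). Gabarap was called with a log2 fold change of 0.38 ± 0.14 (SE) and an adjusted p = 0.0417, and the call was lost when any 1 of the 6 libraries was left out. Median scaling took the limma adjusted p of Gabarap to 0.188. Map1lc3b encodes LC3B, the ATG8 protein most used to count autophagosomes. It had 60.3, 59.3 and 60.1 FPKM in the DOX libraries, against 58.2, 59.95 and 55.6 FPKM in the con libraries, and its groups overlapped (log2 fold change 0.05 ± 0.08 (SE), limma adjusted p = 0.653). The 95% interval of that difference ran from -0.12 to 0.21 on the log2 scale. Map1lc3b2 is a near-identical copy of Map1lc3b, so reads of the pair may be split in an uncertain way, and it was not called (0.07 ± 0.22, SE). Map1lc3a read 0.33 ± 0.14 (SE) and was not called (adjusted p = 0.0897), though it was without DSI+DOX replicate 3 in the fit (adjusted p = 0.00101).

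TFEB and TFE3 are the transcription factors of the CLEAR genes, and both of their genes were called higher. Tfe3 had 16.02, 20.3 and 22.8 FPKM in the DOX libraries, against 11.8, 11.4 and 10.2 FPKM in the con libraries (log2 fold change 0.76 ± 0.18 (SE), limma adjusted p = 0.00464). Tfeb had 3.58, 3.15 and 3.51 FPKM in the DOX libraries, against 2.45, 2.14 and 2.15 FPKM in the con libraries (log2 fold change 0.44 ± 0.15 (SE), limma adjusted p = 0.0305). For both genes the DOX libraries lay above the con libraries. Tfe3 stayed called without each library in turn, whereas Tfeb lost its call without con replicate 2 or 3 or DOX replicate 1 or 3, with adjusted p-values of 0.0781 to 0.0872, and after median scaling (adjusted p = 0.129). TFEB and TFE3 are controlled largely by phosphorylation and location, which RNA does not show. Mitf and Tfec, other genes of that family, were not called.

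The V-ATPase couples ATP hydrolysis in its cytosolic V1 sector to proton transport through its membrane V0 sector. Of the 13 V1 genes matched, 8 were tested, and 6 of the 8 were higher in DOX. The summed FPKM of all V1 genes was 1028 to 1175 in DOX and 732 to 791 in con, and that of the V0 genes 392 to 421 in DOX and 326 to 348 in con. Atp6v1d, a subunit of the central rotor, had 347, 333 and 304 FPKM in the DOX libraries, against 164, 172 and 157 FPKM in the con libraries. All DOX libraries exceeded all con libraries, and mean FPKM was 2.00 times as high (log2 fold change 0.99 ± 0.07 (SE), limma adjusted p = 8.77e-08). Atp6v1f, another rotor gene, rose by 0.80 ± 0.13 (SE), and Atp6v1g1, of the peripheral stalk, by 0.43 ± 0.09, both in log2.

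The other V1 changes were smaller. Log2 fold changes were 0.33 ± 0.11 for Atp6v1b2, which encodes the B subunit of the ATPase ring, 0.32 ± 0.07 for the stalk gene Atp6v1c1 and 0.26 ± 0.07 for Atp6v1h, a regulatory subunit (each with its SE). Atp6v1b2 lost its call when con replicate 1 or 3 or any 1 DOX library was left out. Atp6v1c1 lost its call after median scaling (limma adjusted p = 0.0501). Quantile normalization took the limma adjusted p of Atp6v1b2 to 0.0781 and that of Atp6v1h to 0.0827. Atp6v1a, the catalytic subunit gene, was not called (0.26 ± 0.18, adjusted p = 0.274), though it was without DSI+DOX replicate 3 in the fit (adjusted p = 0.000754), nor was the stalk gene Atp6v1e1 (-0.09 ± 0.08, adjusted p = 0.426).

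In the V0 sector 2 of 5 tested genes were higher, where 24.8% of all tested entries were. Atp6v0d1, the subunit that joins the sectors, averaged 119.8 ± 4.90 FPKM in DOX and 87.1 ± 3.26 FPKM in con (SD, n = 3 each; log2 fold change 0.46 ± 0.09 (SE), limma adjusted p = 0.000825). Atp6v0e2, of a small membrane subunit, had 1.54, 1.72 and 1.85 FPKM in the DOX libraries, against 0.404, 0.779 and 0.933 FPKM in the con libraries (log2 fold change 0.68 ± 0.17 (SE), limma adjusted p = 0.0052). No con library reached an FPKM of 1, so this gene too passed the filter only through libraries given doxorubicin. The proton-carrying ring gene Atp6v0c (0.23 ± 0.11), the a-subunit gene Atp6v0a1 (0.16 ± 0.10) and Atp6v0e1, paralog of Atp6v0e2 (-0.22 ± 0.11), were not called (log2 fold change, SE). Of the accessory genes, Atp6ap1, which takes part in assembly of the pump, was higher (log2 fold change 0.58 ± 0.09 (SE), limma adjusted p = 0.000131), and Atp6ap2, the prorenin receptor gene, was not called (0.17 ± 0.11). Atp6v1fnb matches the rule by symbol only, since it names a neighbour of Atp6v1f, and it was not called (0.39 ± 0.18). The 8 untested V-ATPase genes, Atp6v1b1, Atp6v1c2, Atp6v1e2, Atp6v1g2, Atp6v1g3, Atp6v0a4, Atp6v0d2 and Atp6ap1l, were at 1.04 FPKM or less in every library.

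**Figure D2:**
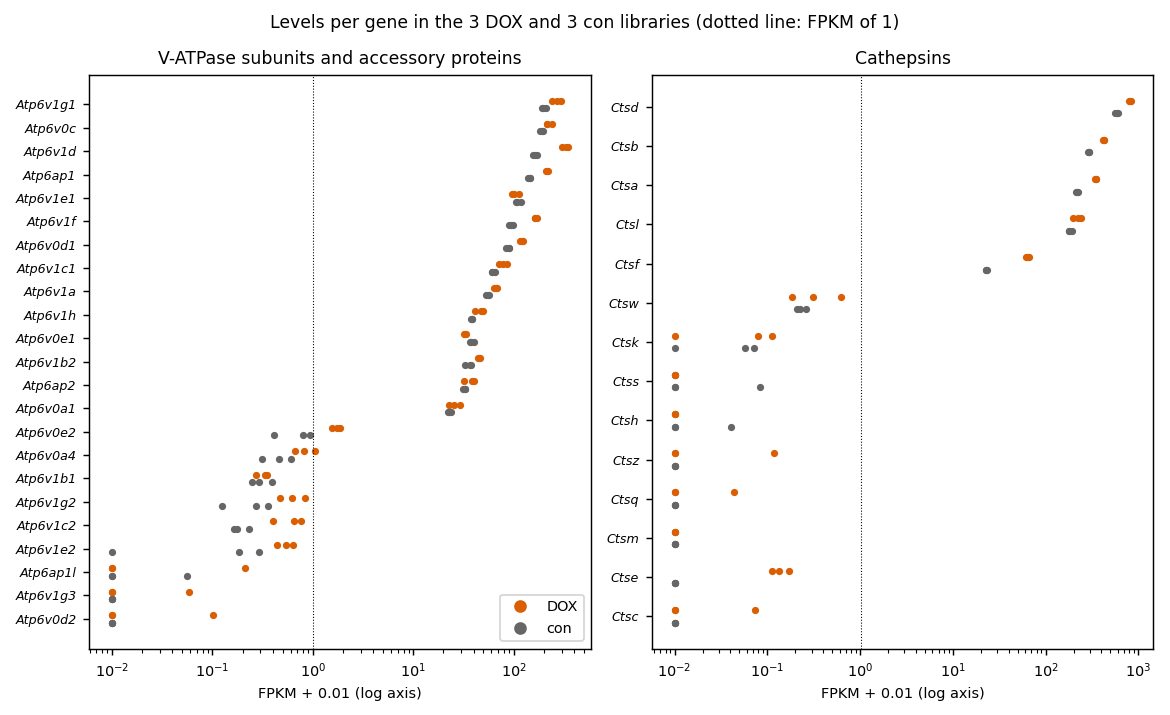
FPKM + 0.01 on a log axis for each V-ATPase gene and each cathepsin gene matched, with 3 points for DOX above 3 points for con. The dotted line marks an FPKM of 1, and genes left of it include the 8 untested cysteine cathepsins and Atp6v1g3 and Atp6v0d2 of the V-ATPase.

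All 5 tested cathepsin genes were higher in DOX. Ctsf encodes cathepsin F, a cysteine protease. It had 65.1, 61.5 and 65.8 FPKM in the DOX libraries, against 22.6, 23.5 and 22.5 FPKM in the con libraries. Every DOX library held more than 2 times the FPKM of every con library (log2 fold change 1.45 ± 0.07 (SE), limma adjusted p = 5.16e-09). Ctsb, the gene of cathepsin B, had 425, 412 and 422 FPKM in the DOX libraries, against 292, 289.8 and 286 FPKM in the con libraries (log2 fold change 0.53 ± 0.06 (SE), limma adjusted p = 4.65e-06). Ctsl, the gene of cathepsin L, had 240.2, 221 and 199.5 FPKM in the DOX libraries, against 179.6, 190.2 and 177 FPKM in the con libraries (log2 fold change 0.27 ± 0.08 (SE), limma adjusted p = 0.0178). Neither gene showed overlap between groups, and the Ctsl call was lost without con replicate 1 or 3 or DOX replicate 1 or 2 (adjusted p of 0.052 to 0.085) and after median scaling (adjusted p = 0.185).

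Cathepsin D is the main aspartic protease of lysosomes, and cathepsin A is a serine carboxypeptidase that also protects lysosomal neuraminidase and galactosidase. Ctsd had 808, 784 and 823 FPKM in the DOX libraries, against 592, 605 and 561 FPKM in the con libraries (log2 fold change 0.46 ± 0.08 (SE), limma adjusted p = 0.000582). Ctsa had 353, 341 and 351 FPKM in the DOX libraries, against 219.8, 225 and 213 FPKM in the con libraries (log2 fold change 0.66 ± 0.06 (SE), limma adjusted p = 2.77e-06). In neither gene did the groups overlap. In the annotation Ctsd overlaps the troponin gene Tnni2, and Ctsa overlaps Neurl2 and Pltp. Tnni2 had 0.552, 0.335 and 0.146 FPKM in DOX and 5.46, 7.03 and 4.85 FPKM in con, the opposite direction to Ctsd. In all, 19 of the 57 tested members are overlapped by another annotated gene and 8 by a protein-coding one, which also touches Wipi1, Npc1, Atg4d, Becn1 and Atp6v1h, and reads of such pairs may be shared. Of the 9 untested cathepsin genes none reached an FPKM of 1 in any library, the highest being Ctsw at 0.644.

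Of the lysosomal membrane genes, Lamp1, Lamp2 and Mcoln1 were higher in DOX. Lamp1 and Lamp2 encode the most abundant lysosomal membrane glycoproteins. Lamp1 had 252, 245 and 252 FPKM in the DOX libraries, against 195, 199.7 and 194 FPKM in the con libraries (log2 fold change 0.35 ± 0.05 (SE), limma adjusted p = 0.00015). Lamp2 had 247, 239 and 227 FPKM in the DOX libraries, against 179, 185 and 186 FPKM in the con libraries (log2 fold change 0.37 ± 0.07 (SE), limma adjusted p = 0.000823). Both stayed called without each library in turn, and Lamp3 and Lamp5 were under an FPKM of 1 throughout. Mcoln1 encodes TRPML1, the calcium channel of the lysosome, and had 38.2, 38.6 and 44.8 FPKM in the DOX libraries, against 25.1, 25.3 and 24.2 FPKM in the con libraries. All DOX libraries were above all con libraries (log2 fold change 0.68 ± 0.07 (SE), limma adjusted p = 2.5e-06).

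Of the NPC genes, Npc2 was higher in DOX and Npc1 was not called. NPC2 takes up cholesterol in the lumen and hands it to NPC1 in the membrane. Npc2 had 503, 465 and 469 FPKM in the DOX libraries, against 257, 279 and 248 FPKM in the con libraries (log2 fold change 0.87 ± 0.12 (SE), limma adjusted p = 8.06e-05). Npc1 had 11.6, 12.2 and 14.6 FPKM in the DOX libraries, against 13.2, 12.8 and 13.2 FPKM in the con libraries, and its groups overlapped (log2 fold change -0.04 ± 0.18 (SE), limma adjusted p = 0.887). The 95% interval for Npc1 ran from -0.42 to 0.34 on the log2 scale.

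**Figure D3:**
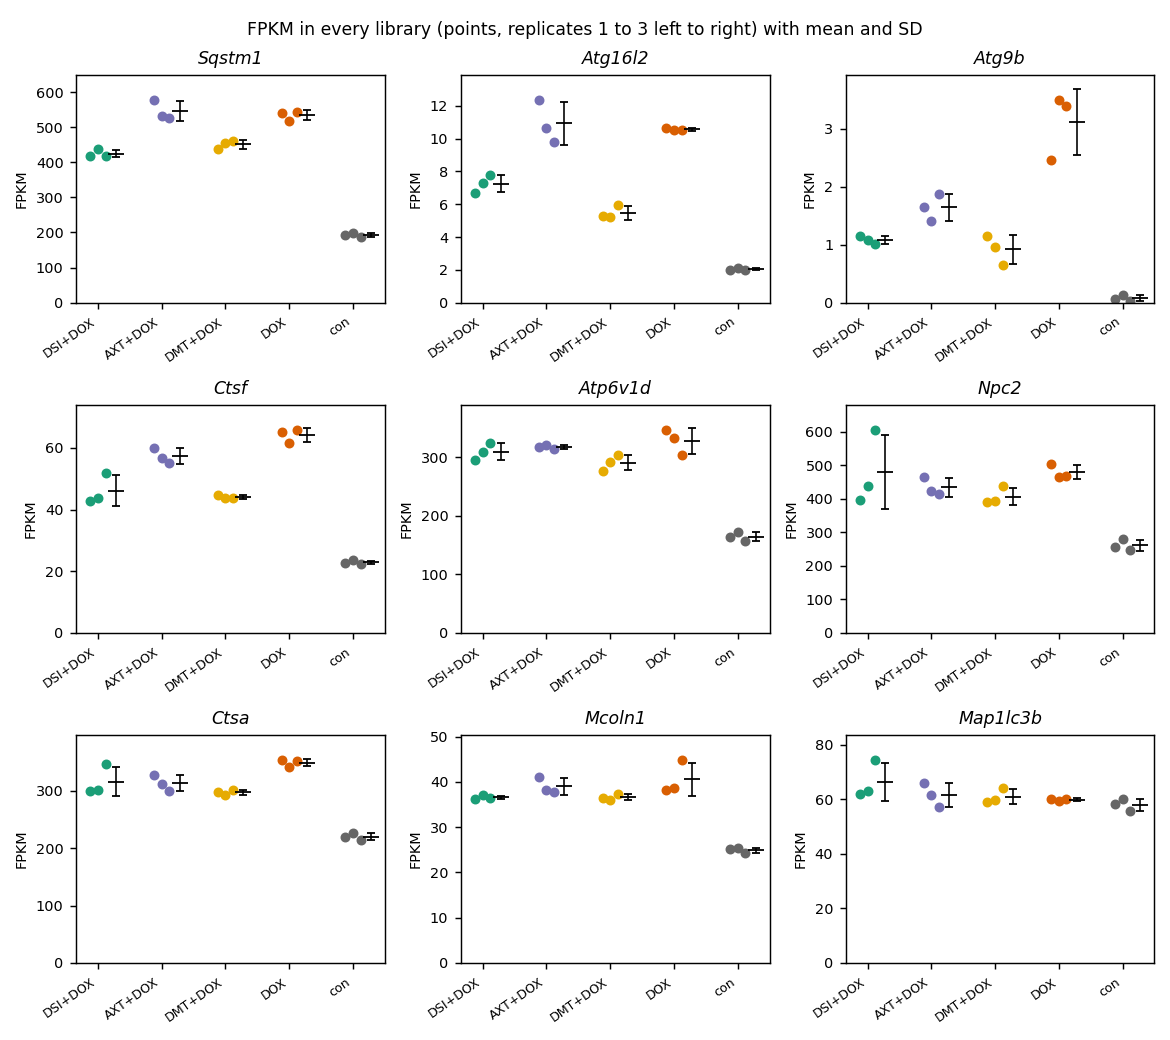
FPKM in each of the 15 libraries for 9 members, with the group mean and SD beside the points. Sqstm1, Atg16l2, Atg9b and Ctsf show DSI+DOX and DMT+DOX libraries between DOX and con, and Map1lc3b runs from 55.6 to 74.3 FPKM over the 15 libraries.

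Since several members are known CLEAR genes, their promoters were read from RefSeq (GRCr8, 250 bases before to 50 after the start), for the 47 tested members with a window. The E-box CACGTG, which reads the same on both strands, was in 9 of 47 (19.1%), against 10.4% of 8232 tested genes and 7.08% of 27457 genes with a window. It stood in 8 of the 28 members called higher in DOX and in 1 of the 19 not called, Atp6v0e1. The longer TCACGTGA, which contains the E-box, was in 6 of 47 members (12.8%), against 1.99% of tested genes. TGACNNNGC, the core of the antioxidant response element searched on both strands, was in 13 members (27.7%), against 15.7% of tested genes, and in 25.0% of the members called higher and 31.6% of those not called. The core of the ATF4 composite element, TGATGNAA on both strands, was in 0 of 47, against 1.97% of tested genes.

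The stretches printed here, 5′ to 3′ on the gene's strand and with each CACGTG in capitals, show where the E-box lies in 6 members called higher in DOX, of the cathepsin, channel, pump, membrane and conjugation groups.
Ctsf: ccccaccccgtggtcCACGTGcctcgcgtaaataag
Ctsd: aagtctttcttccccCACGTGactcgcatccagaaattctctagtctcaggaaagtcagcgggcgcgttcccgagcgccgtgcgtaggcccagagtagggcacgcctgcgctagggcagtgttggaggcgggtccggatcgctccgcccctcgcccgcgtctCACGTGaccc
Mcoln1: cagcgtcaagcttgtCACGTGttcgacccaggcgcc
Atp6v0d1: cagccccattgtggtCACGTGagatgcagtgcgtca
Lamp1: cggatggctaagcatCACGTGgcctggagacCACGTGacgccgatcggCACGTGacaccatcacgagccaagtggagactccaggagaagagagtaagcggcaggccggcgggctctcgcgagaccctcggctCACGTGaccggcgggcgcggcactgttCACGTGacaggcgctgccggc
Atg3: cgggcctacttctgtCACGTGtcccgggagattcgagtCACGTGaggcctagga
They lie, in that order, at chr1:211582005-211582040, plus strand, chr1:206968822-206968993, minus strand, chr12:6358221-6358256, plus strand, chr19:50357280-50357315, minus strand, chr16:83075081-83075261, minus strand and chr11:69159281-69159334, minus strand of GRCr8. Lamp1 carries 5 E-boxes and Ctsd 2, with those of Ctsd at -157 and -10 bases from the start. The single E-box of Ctsf begins at -149, that of Atp6v0d1 at -52, and those of Atg3 at -39 and -16. Mcoln1 carries another E-box just after its start, at 5, which is not shown. Also not shown are Atg5 (E-box at -19) and Atg14 (at 7), called higher in DOX. Both lost their calls in several of the fits that left out a single library. No CACGTG is in the windows of Sqstm1, Atg16l2, Atg9b and Atp6v1d, 4 of the 5 members with the largest called rise. A match is a description of the letters only, and no binding was measured.

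Other genes of the pathway were taken from fixed lists outside the naming rule and are read against all tested entries, of which 24.8% were higher and 14.1% lower in DOX. Of 19 tested genes of the autophagy machinery 5 were higher in DOX, 2 were lower and 12 were not called, shares near that background. Optn, an autophagy receptor gene, averaged 12.05 FPKM in DOX and 7.21 FPKM in con, a log2 fold change of 0.67 ± 0.11 (SE, limma adjusted p = 0.000229). Calcoco1 and Bnip3, which also encode receptors, rose by 0.71 ± 0.15 and 0.68 ± 0.08 in log2. Tmem41b, a lipid scramblase gene, fell (-0.27 ± 0.10), as did Sh3glb1 (-0.15 ± 0.05). Of 12 tested genes that fuse autophagosomes with lysosomes 5 were higher, among them Rab7a, the late endosome GTPase gene (0.41 ± 0.05), with Vps11, Vps16, Vps18 and Vps39 of the tethering complexes, and the SNARE gene Ykt6 was lower (-0.47 ± 0.12).

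Of 22 tested genes of mTORC1 control at the lysosome, 7 were higher and 2 lower, also not far from the shares over all tested entries. Sesn2, a stress-induced inhibitor of mTORC1, averaged 56.4 FPKM in DOX and 19.5 FPKM in con, and rose by 1.48 ± 0.07 in log2 (SE, limma adjusted p = 2.42e-09). Its paralog Sesn1 (-0.48 ± 0.14) and Deptor, also an mTOR inhibitor gene (-0.61 ± 0.22, limma adjusted p = 0.0405), were lower. Ddit4 (0.56 ± 0.06) and Tsc2 (0.60 ± 0.08), inhibitors of mTORC1, and Rragc, a GTPase that binds it to the lysosome (0.51 ± 0.05), were higher.

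With danshen injection before doxorubicin, 6 of the 57 members were lower than in DOX alone and 1 was higher. Over all tested entries 7.88% were called, 1.47% higher and 6.41% lower, against 1.75% and 10.5% of the members. The median log2 fold change of the members was -0.13, close to that of all tested entries (-0.11). Shifting each library to 1 median moved the all-gene median to 0.04, and 1 higher and 1 lower member were then called, with 58.5% of all calls higher, against 18.7% without that shift. With DSI+DOX replicate 3 left out, 1 higher and 9 lower were called. Over all tested entries 304 were then higher and 1026 lower, against 166 and 723 with all libraries. Left out in turn, DSI+DOX replicate 1 gave 12 calls and each DOX library 4. Without DSI+DOX replicate 1 the calls over all tested entries were 668 higher and 1862 lower. With only the DSI+DOX and DOX libraries in the fit no member was called, and over all tested entries 0 were higher and 1 lower.

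The members that fell included the 4 with the largest rise under doxorubicin. The DOX libraries enter both comparisons, so the values are given side by side and not as separate evidence. Sqstm1 had 419, 437 and 419 FPKM in the DSI+DOX libraries, against 542, 518 and 544 FPKM in the DOX libraries. All DSI+DOX libraries lay below all DOX libraries (log2 fold change -0.33 ± 0.06 (SE), limma adjusted p = 0.0047) and above all con libraries, and median scaling took the adjusted p to 0.214. Atg16l2 had 6.70, 7.31 and 7.78 FPKM in the DSI+DOX libraries, against 10.7, 10.5 and 10.5 FPKM in the DOX libraries. Its groups did not overlap either (log2 fold change -0.49 ± 0.09 (SE), limma adjusted p = 0.00511), and median scaling gave an adjusted p = 0.111. Ctsf had 42.7, 43.9 and 51.9 FPKM in the DSI+DOX libraries, against 65.1, 61.5 and 65.8 FPKM in the DOX libraries. Replicate 3 of DSI+DOX was the highest of the 3 and still below DOX (log2 fold change -0.47 ± 0.07 (SE), limma adjusted p = 0.00156), and median scaling gave an adjusted p = 0.116.

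Atg9b, the lipid scramblase gene that overlaps Nos3, had 1.15, 1.08 and 1.02 FPKM in the DSI+DOX libraries, against 2.46, 3.50 and 3.39 FPKM in the DOX libraries. The DSI+DOX libraries were all below the DOX libraries (log2 fold change -0.97 ± 0.12 (SE), limma adjusted p = 0.000387), and it was called after median scaling too, as was Atp6v0e1. Nos3 had 0.402, 0.156 and 0.408 FPKM in DSI+DOX, also below its 0.694, 0.797 and 0.695 FPKM in DOX. Atp6ap1, the V-ATPase assembly gene (-0.32 ± 0.09), and Uvrag, the endosomal subunit of the Beclin 1 complex (-0.30 ± 0.08), were also lower (log2 fold change, SE), and both calls were lost when any 1 DOX library was left out. The only member called higher was Atp6v0e1, a small V0 subunit gene. It had 37.5, 42.6 and 52.9 FPKM in the DSI+DOX libraries, against 33.1, 32.4 and 31.98 FPKM in the DOX libraries (log2 fold change 0.42 ± 0.11 (SE), limma adjusted p = 0.0345). The groups did not overlap, and the call was lost when any 1 DOX library (adjusted p of 0.0751 to 0.104) was left out, or DSI+DOX replicate 2 (adjusted p = 0.0515).

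Replicate 3 of DSI+DOX differed from replicates 1 and 2 in many members. It was more than 0.5 higher in log2(FPKM + 1) than their mean for 9 of the 57 and more than 0.5 lower for 8, and over all tested entries for 1344 and 3027 of 11288. The largest differences were 0.77 for Atg101 and 0.67 for Map1lc3a, against -1.04 for Atg13 and -0.90 for Atp6v1a. For Sqstm1 (-0.03) and Atg9b (-0.07) it lay close to the others. Members with a wide spread in DSI+DOX include Npc2, at 397, 439 and 605 FPKM, and Tfe3, at 16.6, 18.3 and 9.65 FPKM.

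**Figure D4:**
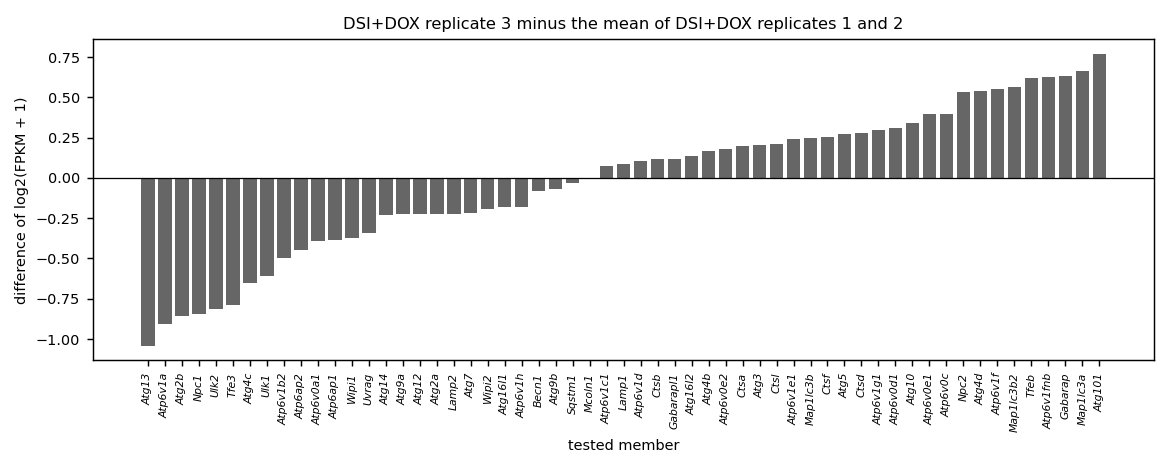
Difference in log2(FPKM + 1) between DSI+DOX replicate 3 and the mean of DSI+DOX replicates 1 and 2 for each of the 57 tested members, sorted. Bars reach from -1.04 for Atg13 to 0.77 for Atg101, and Mcoln1 and Sqstm1 lie near 0.

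With astaxanthin, 1 of the 57 members was called against DOX, Atg9b, which was lower. Over all tested entries 0.691% were called, 0.0709% higher and 0.62% lower. Atg9b had 1.66, 1.41 and 1.87 FPKM in the AXT+DOX libraries, against 2.46, 3.50 and 3.39 FPKM in the DOX libraries. The groups did not overlap (log2 fold change -0.63 ± 0.12 (SE), limma adjusted p = 0.0287), but the call was lost when DOX replicate 2 or 3 or any 1 AXT+DOX library was left out (adjusted p of 0.061 to 0.171). Sqstm1 had 578, 532 and 526 FPKM in AXT+DOX, which overlapped DOX, and a log2 fold change of 0.03 ± 0.06 (SE, adjusted p = 0.993) with a 95% interval from -0.10 to 0.16. Atg16l2 had 12.4, 10.7 and 9.77 FPKM in AXT+DOX (0.04 ± 0.09, interval from -0.15 to 0.23), and Ctsf 60.1, 56.7 and 55.1 FPKM (-0.16 ± 0.07, interval from -0.31 to -0.01). Neither passed the test. At an unadjusted p under 0.05, 0 members were higher and 5 lower, with no count made over all tested entries.

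With diosmetin, 5 of the 57 members were lower than in DOX alone and 0 were higher. Over all tested entries 10.5% were called, 2.93% higher and 7.53% lower, against 8.77% of members called lower, so the members' shares were near the background. The median log2 fold change was -0.12 over the members and -0.04 over all tested entries. At an unadjusted p under 0.05, 0 members were higher and 10 lower, with no count made over all tested entries. Without DSI+DOX replicate 3 in the fit, 2 higher and 13 lower were called, and after median scaling 3 lower and 0 higher. Over all tested entries, 884 were higher and 1937 lower without that library, and 490 and 434 after median scaling. Leaving out DOX replicate 1 or 3 or DMT+DOX replicate 1 or 2 gave 3 calls.

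Atg9b, Atg16l2 and Ctsf fell by the largest amounts. Atg9b had 1.15, 0.956 and 0.645 FPKM in the DMT+DOX libraries, against 2.46, 3.50 and 3.39 FPKM in the DOX libraries (log2 fold change -1.10 ± 0.12 (SE), limma adjusted p = 6.18e-05). Atg16l2 had 5.27, 5.22 and 5.98 FPKM in the DMT+DOX libraries, against 10.7, 10.5 and 10.5 FPKM in the DOX libraries (log2 fold change -0.84 ± 0.09 (SE), limma adjusted p = 5.47e-05). Ctsf had 44.7, 43.8 and 43.6 FPKM in the DMT+DOX libraries, against 65.1, 61.5 and 65.8 FPKM in the DOX libraries (log2 fold change -0.53 ± 0.07 (SE), limma adjusted p = 0.000343). In all 3 genes the DMT+DOX libraries lay below the DOX libraries and above the con libraries, and the calls held without each library in turn. Nos3, which overlaps Atg9b, had 0.185, 0.246 and 0.271 FPKM in DMT+DOX. Sqstm1 had 438, 455 and 462 FPKM in the DMT+DOX libraries, against 542, 518 and 544 FPKM in the DOX libraries (log2 fold change -0.24 ± 0.06 (SE), limma adjusted p = 0.0185). These groups did not overlap, and the call was lost without DOX replicate 1 or 3 or DMT+DOX replicate 1 or 2 (adjusted p of 0.0601 to 0.0874) and after median scaling (adjusted p = 0.218). Ctsa, the carboxypeptidase gene, had 298, 292 and 301 FPKM in the DMT+DOX libraries, against 353, 341 and 351 FPKM in the DOX libraries (log2 fold change -0.23 ± 0.06 (SE), limma adjusted p = 0.0387), and its call was lost when any 1 of the 6 libraries was left out.

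**Figure D5:**
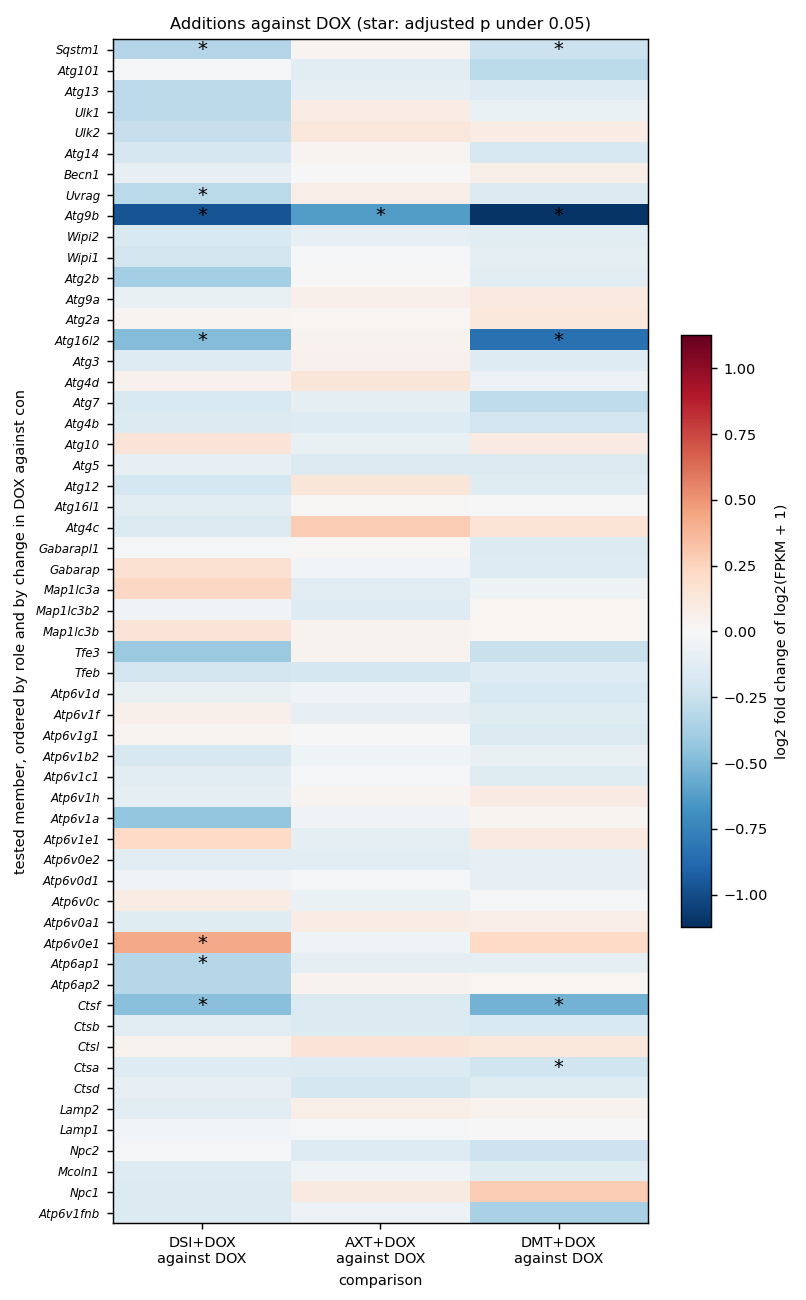
Log2 fold change of log2(FPKM + 1) against DOX for each tested member, 1 column for each of DSI+DOX, AXT+DOX and DMT+DOX, with a star where the limma adjusted p is under 0.05. Stars stand in 7 cells for DSI+DOX, 1 for AXT+DOX and 5 for DMT+DOX, and Atg9b is the only member starred in all 3 columns.

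The remaining well-known members were not called against DOX with any addition when all libraries were fitted at equal weight without further scaling. After quantile normalization Ctsb (log2 fold change -0.32, limma adjusted p = 0.0200) and Ctsd (-0.43, limma adjusted p = 0.00245) were lower with danshen injection. Ulk1 was lower with danshen injection once DSI+DOX replicate 1 was left out (-0.43, limma adjusted p = 0.0413). Without DSI+DOX replicate 3, Ctsb was lower with danshen injection (adjusted p = 0.0265) and with diosmetin (adjusted p = 0.00659). Tfeb was then lower with danshen injection (log2 fold change -0.42, adjusted p = 0.0199). In that fit Gabarapl1 was lower (adjusted p = 0.0252) and Npc1 higher (adjusted p = 0.0147) with diosmetin. Map1lc3b had 61.8, 63.1 and 74.3 FPKM in DSI+DOX, 66.1, 61.7 and 57.3 FPKM in AXT+DOX and 59.1, 59.6 and 64.2 FPKM in DMT+DOX. The highest value was that of DSI+DOX replicate 3, the library that stands apart. Gabarapl1 had 42.5, 44.4 and 47.2 FPKM in DSI+DOX, 47.3, 44.9 and 45.00 FPKM in AXT+DOX and 39.8, 41.5 and 40.4 FPKM in DMT+DOX. For both ATG8 genes the addition groups stayed near the DOX level, with log2 differences from DOX of 0.14, 0.04 and 0.02 for Map1lc3b and -0.02, 0.02 and -0.15 for Gabarapl1, in the order DSI+DOX, AXT+DOX and DMT+DOX. Ulk1, the initiating kinase gene, had 10.3, 9.24 and 6.06 FPKM in DSI+DOX, 11.6, 10.97 and 10.9 FPKM in AXT+DOX and 10.8, 9.76 and 9.03 FPKM in DMT+DOX. Wipi1, the lipid sensor gene, had 27.04, 27.8 and 20.9 FPKM in DSI+DOX, 29.4, 27.5 and 29.6 FPKM in AXT+DOX and 26.5, 27.98 and 26.5 FPKM in DMT+DOX. Becn1, the core of the lipid kinase complex, had 43.96, 47.3 and 43.1 FPKM in DSI+DOX, 47.05, 48.4 and 48.6 FPKM in AXT+DOX and 49.01, 51.2 and 50.3 FPKM in DMT+DOX. In Ulk1 and Wipi1 the lowest value was again that of DSI+DOX replicate 3.

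Of the factors and the channel, Tfeb had 2.29, 2.32 and 4.07 FPKM in DSI+DOX, 3.38, 2.62 and 2.59 FPKM in AXT+DOX and 3.23, 2.58 and 3.15 FPKM in DMT+DOX. Tfe3 had 16.6, 18.3 and 9.65 FPKM in DSI+DOX, 20.9, 19.5 and 20.1 FPKM in AXT+DOX and 16.6, 17.6 and 14.8 FPKM in DMT+DOX. In replicate 3 of DSI+DOX, Tfeb was higher and Tfe3 lower than in replicates 1 and 2. Mcoln1 had 36.3, 37.03 and 36.4 FPKM in DSI+DOX, 41.1, 38.2 and 37.7 FPKM in AXT+DOX and 36.5, 36.1 and 37.4 FPKM in DMT+DOX, and its log2 differences from DOX were -0.14, -0.05 and -0.14. Lamp1 had 236, 243 and 254 FPKM in DSI+DOX, 258, 244 and 242 FPKM in AXT+DOX and 249, 247 and 256 FPKM in DMT+DOX. Lamp2 had 236, 224 and 197 FPKM in DSI+DOX, 236, 257 and 256 FPKM in AXT+DOX and 241, 246 and 244 FPKM in DMT+DOX. These membrane genes kept values above every con library in all 9 addition libraries.

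Ctsb, the cathepsin B gene, had 375, 371 and 405 FPKM in DSI+DOX, 388, 377 and 365 FPKM in AXT+DOX and 377, 364 and 377 FPKM in DMT+DOX. Ctsd, the cathepsin D gene, had 698, 721 and 859 FPKM in DSI+DOX, 755, 679.7 and 671 FPKM in AXT+DOX and 728, 714 and 753 FPKM in DMT+DOX. Ctsl, the cathepsin L gene, had 215, 216 and 249 FPKM in DSI+DOX, 239.9, 246 and 242 FPKM in AXT+DOX and 225, 236 and 257 FPKM in DMT+DOX. Log2 differences from DOX were -0.13, -0.16 and -0.17 for Ctsb, -0.09, -0.20 and -0.14 for Ctsd and 0.04, 0.14 and 0.12 for Ctsl, in the same order of groups. Npc1, the cholesterol exporter gene, had 14.6, 13.5 and 7.36 FPKM in DSI+DOX, 13.05, 14.5 and 13.7 FPKM in AXT+DOX and 15.7, 16.8 and 14.8 FPKM in DMT+DOX. Its value in DSI+DOX replicate 3 was the lowest of the 9 libraries, and with array weights, which give less weight to libraries that stand apart, its difference from DOX became positive, as it also did, uncalled, when that library was left out (0.13, adjusted p = 0.377).

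Set against con, the addition groups still differed in many of these genes. With danshen injection 27 members were higher than in con and 3 lower, where 20.5% of all tested entries were higher and 21.3% lower (41.8% in all). The 3 lower members were Atg4c, Ulk2 and Uvrag, and without DSI+DOX replicate 3 the counts were 28 higher and 1 lower. Over all tested entries that fit gave 2433 higher and 2143 lower. With astaxanthin 29 were higher and 0 lower, where 35.5% of all tested entries were called, 22.7% higher. With diosmetin 21 were higher and 0 lower, where 26.2% were called, 15.5% higher. At an unadjusted p under 0.05, 2 members were lower with astaxanthin and 0 with diosmetin, with no count made over all tested entries. Without DSI+DOX replicate 3 in the fit, 38 higher and 1 lower were called with diosmetin, and over all tested entries 2747 higher and 2343 lower. Calls that held without each library in turn numbered 19 with danshen injection, 23 with astaxanthin and 18 with diosmetin.

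The genes farthest from con were the same 4 by name in each addition group, and the level differed. Mean FPKM of Sqstm1 was 425 ± 10.7 in DSI+DOX, 545 ± 28.5 in AXT+DOX and 452 ± 12.6 in DMT+DOX, against 193 ± 6.67 in con (SD, n = 3 each), with log2 fold changes over con of 1.13, 1.49 and 1.22. Mean FPKM of Ctsf was 46.2 ± 5.00, 57.3 ± 2.56 and 44.04 ± 0.558 in the same order, against 22.9 ± 0.548 in con. Atp6v1d, the V1 rotor gene, was at 309.8 ± 14.7, 318 ± 3.91 and 291 ± 13.5 FPKM, against 164 ± 7.81 FPKM in con, and was not called against DOX with any addition when all libraries were fitted. With diosmetin it was lower once DSI+DOX replicate 3 was left out (log2 fold change -0.17, adjusted p = 0.0408). The share of all FPKM held by the 76 genes was 1.17% to 1.21% in DSI+DOX, 1.28% to 1.32% in AXT+DOX and 1.24% to 1.25% in DMT+DOX, between the ranges of DOX and con.

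Tests between the additions, which were given at doses that differ in kind, showed which of these levels differed. DSI+DOX against AXT+DOX had 5 members lower and 2 higher, where 10.5% of all tested entries were called, 7.99% lower and 2.5% higher. The lower ones were Atg16l2 (-0.53 ± 0.09), Sqstm1 (-0.36 ± 0.06), Ctsf (-0.31 ± 0.07), Uvrag (-0.38 ± 0.08) and Atg12 (-0.33 ± 0.08), and the higher ones Atp6v0e1 (0.47 ± 0.11) and Atp6v1e1 (0.32 ± 0.08), each a log2 fold change with its SE. Atg16l2 and Sqstm1 stayed called without each library in turn, and the count was 18 without DSI+DOX replicate 1 and 2 without AXT+DOX replicate 2 or 3. Over all tested entries, 1126 were higher and 2924 lower without DSI+DOX replicate 1. AXT+DOX against DMT+DOX had 4 higher and 0 lower, where 4.7% of all tested entries were called, 2.58% higher and 2.12% lower. They were Atg16l2 (log2 fold change 0.87 ± 0.09 (SE), limma adjusted p = 7.3e-05), Atg9b (0.47 ± 0.12), Ctsf (0.37 ± 0.07) and Sqstm1 (0.27 ± 0.06). Atg16l2 and Ctsf stayed called without each library in turn, and 2 calls were left without AXT+DOX replicate 1 or 2 or DMT+DOX replicate 2. Without DSI+DOX replicate 3 in the fit the count was 9, with 1175 of all tested entries higher and 619 lower.

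DSI+DOX against DMT+DOX had no member called by limma, where 1.68% of all tested entries were. At an unadjusted p under 0.05, 3 members were higher and 8 lower, with no count made over all tested entries. Without DSI+DOX replicate 1, 8 members were called, and over all tested entries 847 were higher and 1362 lower. With array weights 29 members were called, and over all tested entries 2711 were higher and 2882 lower. With all libraries at equal weight the smallest adjusted p was 0.065. The 95% interval of the log2 difference ran from -0.22 to 0.04 for Sqstm1, from -0.09 to 0.21 for Ctsf and from 0.16 to 0.54 for Atg16l2, and a missed threshold does not show that danshen injection and diosmetin acted alike on these genes.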

How the data were processed

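Per the labels' protocols, RNA was extracted with TRIzol and the 15 libraries were made with the NEBNext Ultra kit. The deposited table gives 1 FPKM column for each library, per the file headers, and all columns were matched to samples (0 were not). The submitters' processing notes name Trimmomatic, HISAT2 and featureCounts, with Rnor_6.0 as the build. How counts became FPKM, and any normalization or use of strand, is not given in the sources used here. Read depth is unknown, so a count model could not be used. Whether the replicates are separate cultures is not in the labels, so p-values measure only the spread between these samples, which may be technical.

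Of 19344 entries 16 exact duplicates were removed. Entries with no symbol, 1315 in number, held 3.13% to 4.7% of the FPKM of a library and stayed in the fit. For the 11288 entries that reached an FPKM of 1 in 3 or more libraries, log2(FPKM + 1) of all 15 libraries was fitted with 1 mean per group in limma 3.58.1 (under R 4.3.3, two-sided, with empirical Bayes moderation along an intensity trend), tested on simulated data first. Calls are at a Benjamini-Hochberg adjusted p under 0.05 over all tested entries. The scale understates changes of low genes. A difference of groups called not overlapping means that all 3 libraries of 1 group lie above all 3 of the other. Replicate numbers were not used as a block.

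The members, gene lists and tests were chosen with earlier results of these data known. Named are 15 well-known members, the 5 largest called rises and falls in each main comparison, and the member with the largest change in each role group. Others are named where a group is described. Uvrag, Atg12, Atp6v1e1 and genes outside the rule were named after their values were seen. Alternatives were a pseudocount of 0.1, filters at FPKM 5 and above 0, median scaling, quantile normalization, no trend, array weights, a replicate block, only the groups compared, and each library left out. Promoters came from RefSeq (GRCr8), matched by symbol. Tables and figures were made with Python 3.11.15, pandas 2.3.3 and matplotlib 3.10.9.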

Additional observations from a re-analysis of the deposited data

How the results depend on the processing

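Counts of members called by limma, out of 57, moved by more than 1.5 times under some settings. With array weights, whose iterations stopped before their tolerance was met, 52 were called in DOX against con, 43 in DSI+DOX, 25 in AXT+DOX and 36 in DMT+DOX against DOX, 51, 48 and 40 for the same groups against con, 39 in DSI+DOX against AXT+DOX, 29 in DSI+DOX against DMT+DOX and 21 in AXT+DOX against DMT+DOX. That setting called 4795 of all tested entries higher and 3797 lower in DOX against con. Against DOX it called 3314 and 5463 in DSI+DOX, 3188 and 2886 in AXT+DOX, and 2282 and 3727 in DMT+DOX. Against con it called 4383 and 4196 in DSI+DOX, 4830 and 3256 in AXT+DOX, and 3422 and 3072 in DMT+DOX. For DSI+DOX against AXT+DOX it called 3003 and 5185, and for AXT+DOX against DMT+DOX 3234 and 1463. With array weights Npc1 read 0.12 in DSI+DOX against DOX (adjusted p = 0.00012), against -0.15 with equal weights. Uncalled values also changed sign, such as Ctsb in the same comparison, at -0.13 as reported and 0.02 after median scaling. After median scaling 2 were called in DSI+DOX and 3 in DMT+DOX against DOX, 3 in DSI+DOX against AXT+DOX and 1 in AXT+DOX against DMT+DOX. Over all tested entries median scaling gave 278 higher and 197 lower in DSI+DOX and 490 and 434 in DMT+DOX against DOX. Between additions it gave 442 and 297 in DSI+DOX against AXT+DOX and 149 and 325 in AXT+DOX against DMT+DOX. Quantile normalization gave 1 call in DSI+DOX against DMT+DOX, with 89 higher and 208 lower over all tested entries. When libraries of other groups were kept out of the fit, 0 were called in DSI+DOX, 0 in AXT+DOX and 10 in DMT+DOX against DOX, 13 in DSI+DOX and 37 in DMT+DOX against con, 0 in DSI+DOX against AXT+DOX and 8 in AXT+DOX against DMT+DOX. Against DOX, the calls over all tested entries were then 0 higher and 1 lower in DSI+DOX, 20 and 67 in AXT+DOX and 712 and 1540 in DMT+DOX. Against con they were 868 and 745 in DSI+DOX and 2816 and 2560 in DMT+DOX. For DSI+DOX against AXT+DOX they were 0 and 0, and for AXT+DOX against DMT+DOX 758 and 464. Atg9b lost its call in AXT+DOX against DOX with a pseudocount of 0.1, and at a filter of FPKM 5 it was not tested, which left 0 calls under each setting. Without DSI+DOX replicate 3, 15 were called in DMT+DOX against DOX, 39 in DMT+DOX against con and 9 in AXT+DOX against DMT+DOX. In the same order, 884, 2747 and 1175 of all tested entries were then higher and 1937, 2343 and 619 lower. The cause of these changes was not tested, apart from the fewer libraries or genes that some settings leave.

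Leaving out each library in turn gave 25 to 47 calls in DOX against con, 4 to 12, 0 to 1 and 3 to 15 in DSI+DOX, AXT+DOX and DMT+DOX against DOX, 20 to 33, 25 to 43 and 19 to 39 for these groups against con, 2 to 18 in DSI+DOX against AXT+DOX, 0 to 8 in DSI+DOX against DMT+DOX and 2 to 9 in AXT+DOX against DMT+DOX. In DOX against con, the 25 came without con replicate 3, with 2271 higher and 1259 lower over all tested entries. The 47 came without DSI+DOX replicate 3, with 3753 and 2681. With the replicate number as a block, 31 members were called in DOX against con, 4 in DSI+DOX, 0 in AXT+DOX and 4 in DMT+DOX against DOX, and 2 in AXT+DOX against DMT+DOX. Over all tested entries the block gave 2621 higher and 1453 lower in DOX against con, and 99 and 470 in DSI+DOX against DOX. Deviations of same-numbered libraries correlated from -0.54 to 0.52 over 30 pairs, with 8 of the 30 above 0.1. Libraries with different numbers were not compared, so this check cannot show whether the numbers pair the samples. Read depth is unknown, and 3 libraries a group with no stated culture of origin limit every p-value here.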

Other observations

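Lysosomal enzymes outside the cathepsins also differed between DOX and con. Of 33 tested genes of lysosomal hydrolases and membrane proteins, 18 were higher in DOX and 3 were lower, with a median log2 fold change of 0.34. Over all tested entries 24.8% were higher and 14.1% lower, with a median of 0.05. Arsa, the gene of arylsulfatase A, averaged 19.3 ± 1.49 FPKM in DOX and 9.68 ± 0.418 FPKM in con (SD, n = 3 each), a log2 fold change of 0.92 ± 0.07 (SE, limma adjusted p = 3.51e-07). Gaa, the gene of acid alpha-glucosidase, which digests glycogen, averaged 132 ± 12.1 FPKM in DOX and 71.3 ± 1.33 FPKM in con (0.87 ± 0.06, SE, limma adjusted p = 1.87e-07). Clcn7, a lysosomal chloride and proton exchanger gene, read 0.76 ± 0.15 and the peptidase gene Tpp1 0.67 ± 0.08. The 3 lower genes were Lipa, which encodes the acid lipase that releases cholesterol and fatty acids (-0.33 ± 0.07), the sulfatase gene Galns (-0.21 ± 0.07) and the endolysosomal channel gene Tpcn1 (-0.35 ± 0.06). Cst3, the gene of cystatin C, an inhibitor of cysteine cathepsins, was higher (0.68 ± 0.13, limma adjusted p = 0.000883).

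Sorting of enzymes to the lysosome depends on a mannose 6-phosphate tag made by an enzyme with subunits from Gnptab and Gnptg. Gnptg was higher in DOX (0.89 ± 0.13, limma adjusted p = 0.000119) and Gnptab lower (-0.64 ± 0.22, adjusted p = 0.0365), and of the other tested sorting genes Gga3 was higher (0.51 ± 0.08) and Sort1 lower (-0.31 ± 0.09), each a log2 fold change with its SE. Against DOX, Arsa was lower with danshen injection (-0.39 ± 0.07) and with diosmetin (-0.35 ± 0.07), as were Gga3 (-0.34 ± 0.08 and -0.33 ± 0.08), Sesn2 (-0.33 ± 0.07 and -0.35 ± 0.07), Rragc (-0.30 ± 0.05 and -0.19 ± 0.05) and Optn (-0.44 ± 0.11 and -0.42 ± 0.11). Lipa (0.25 ± 0.07) and Sort1 (0.32 ± 0.09) were higher with diosmetin than in DOX. In the order danshen injection and diosmetin, 1 and 1 of 19 autophagy machinery genes and 1 and 1 of 12 fusion genes were lower. Of 22 mTORC1 genes 2 and 2 were lower. Of 33 hydrolase and membrane genes 3 and 1 were, and of 8 sorting genes 1 and 1. Among all tested entries 6.41% and 7.53% were lower, not far from these counts. Calls of these genes after median scaling were not examined. The values with danshen injection include the library that stands apart.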
